A study of Ovis aries with 12 samples.

Results

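The vascular endothelial growth factor (VEGF) system was followed in the corpora lutea of 12 ewes through 9 genes. They comprised 4 ligands (VEGFA, VEGFB, VEGFC and PGF), 3 receptor tyrosine kinases (FLT1, KDR and FLT4) and 2 neuropilin co-receptors (NRP1 and NRP2). All probe sets that the array annotation assigns to one of these symbols alone were taken, which gave 9 of the 9155 genes with a symbol of their own and 15 of the 24016 probe sets tested. Expression was measured on Affymetrix bovine arrays with RNA from whole ovine corpora lutea with 1 array per ewe. There were 4 groups of 3 ewes, namely day 14 pregnant, day 14 non-pregnant, day 12 pregnant and day 12 non-pregnant. Pregnant ewes had been mated to a fertile ram, and non-pregnant ewes had stayed unmated and were checked for oestrus with a vasectomized ram. The labels gave no breed, age or treatment, and the presence of a conceptus in each mated ewe was not described there.

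The corpus luteum forms from the ovulated follicle, secretes progesterone and is among the most densely vascularised tissues of the body. VEGFA is made by steroidogenic luteal cells and acts on endothelial cells mainly through KDR, whose signal drives their division, migration and survival. FLT1 binds VEGFA, VEGFB and PGF with high affinity but signals weakly, and its soluble form traps ligand. VEGFC acts mainly through FLT4, best known from lymphatic vessels, and the neuropilins hold VEGFs at the cell surface and also bind class 3 semaphorins. At the end of a cycle without a conceptus the ruminant gland regresses under prostaglandin F2alpha, and its capillaries are lost along with its steroidogenic cells.

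The groups rest on the source label of each sample, since all 12 titles name day 12 pregnant and so conflict with the source label of 9 arrays. The description labels name a gene array for 4 arrays (batch A) and a genome array for 8 (batch B). The labels do not settle if that is a difference in design or only in run, so batch here refers to the label alone. Batch A held 1 day 14 pregnant, 2 day 14 non-pregnant and 1 day 12 pregnant array. Values were deposited as log2 RMA levels, with array medians of 5.16 to 5.24. On the first principal component of all probe sets, with 29.6% of the variance, the day 14 non-pregnant arrays lay between 18.1 and 40.4 and the other 9 between -13.0 and -7.00. Steroidogenic genes were bright, with STAR, which carries cholesterol into mitochondria, above 99.8% of probe sets by its mean level. Endothelial PECAM1, an adhesion molecule, lay between 9.51 and 10.72 on every array.

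The members' probe sets differed widely in brightness. Mean log2 levels over the 12 arrays were 11.2 for NRP1, 9.91 and 6.44 for the brightest and second VEGFA probe sets, 8.86 for VEGFB and 8.68 for VEGFC. The 2 KDR probe sets were at 3.78 and 2.18, where 25% of all probe sets lay under 3.59. These levels depend on each probe set's own sequence, and ovine RNA met probes designed on bovine sequence, so they do not rank the transcripts. RMA gives no detection call, so the KDR signal cannot be told apart from background.

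VEGFA was the member that differed most between groups. Its brightest probe set read 10.36, 10.45 and 10.66 in day 14 pregnant ewes, against 8.78, 8.21 and 9.23 in day 14 non-pregnant ewes (log2). On day 12 it read 10.50, 9.85 and 10.30 in pregnant ewes and 10.31, 10.21 and 10.04 in non-pregnant ewes. The 3 day 14 non-pregnant glands were thus the lowest of the 12 and overlapped with no other group, while the day 12 pregnant glands overlapped with both remaining groups. The day 14 pregnant glands all lay above the day 12 non-pregnant ones, by a margin under the spread within either group. In order, the group means were 10.5 ± 0.158 on day 14 of pregnancy, 10.2 ± 0.333 on day 12 of pregnancy, 10.2 ± 0.136 on day 12 without pregnancy and 8.74 ± 0.511 on day 14 without pregnancy (SD, n = 3 each). The plot of members by array shows this gap beside the other 8 genes.

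**Figure D1:**
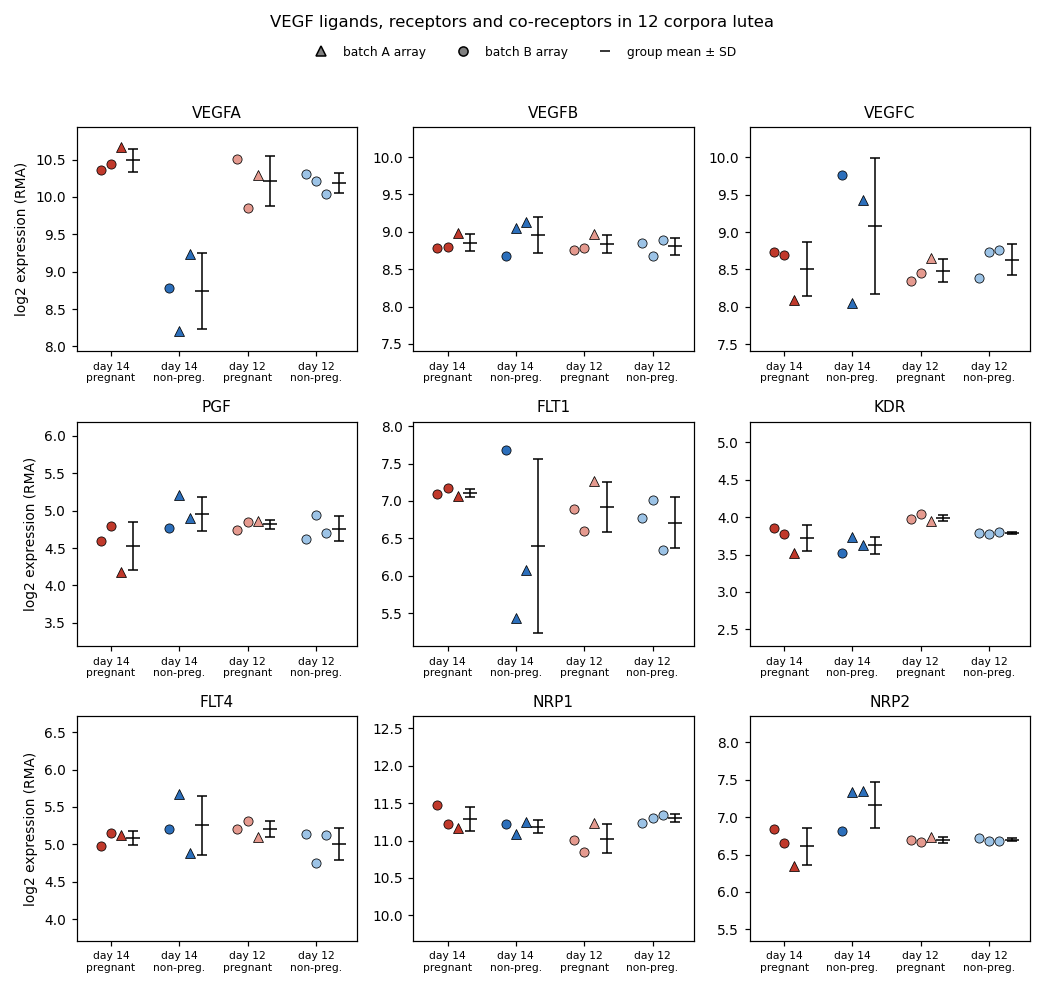
Log2 expression (y axis, each panel spanning 3 log2 units) of the brightest probe set of each member in the 4 groups (x axis), with 1 point per ewe, triangles for batch A and circles for batch B arrays, and group means ± SD beside the points. The 3 day 14 non-pregnant points lie below all others for VEGFA and are spread widely for FLT1 and VEGFC.

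On day 14 VEGFA was 3.45-fold higher in pregnant than in non-pregnant ewes (95% interval 2.40 to 4.96; log2 difference 1.79 ± 0.24, SE; adjusted p = 0.00536 in limma over all probe sets). It ranked 3 by size of change among the 129 probe sets that were higher, and 45 by p among the 348 that passed in either direction. Of the 15 VEGF system probe sets, this was the 1 that passed, or 1 higher where 1.45% of all probe sets passed, 0.537% as higher and 0.912% as lower. Batch A alone, with 1 pregnant and 2 non-pregnant glands, gave 1.94, and batch B alone, with 2 and 1, gave 1.63. Leaving out replicate 3 of the day 14 pregnant ewes gave 1.68, which missed the threshold (adjusted p = 0.0584). Leaving out the 2 batch A glands among the day 14 non-pregnant ewes, an alternative added after seeing the data, gave 1.65 (adjusted p = 0.0143). That fit keeps 1 ewe in the group, whose spread is assumed to be that of the other groups. Whole glands were measured, so fewer VEGFA-producing cells and less VEGFA RNA per cell cannot be told apart.

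In non-pregnant ewes VEGFA was 2.87-fold lower on day 14 than on day 12 (log2 difference -1.52 ± 0.26, 95% interval -2.10 to -0.94, adjusted p = 0.0386 in limma). This was again the 1 of 15 probe sets that passed, against 0.391% of all probe sets, and 0.0999% that passed as lower. Within batch B, which held 1 day 14 and 3 day 12 arrays, the difference was -1.41. No such value exists for batch A, where day 12 non-pregnant ewes were missing. It passed in 3 of the 12 fits that left out 1 array, those without day 14 non-pregnant replicate 2 or 3 or day 12 pregnant replicate 1. The adjusted p lay between 0.0579 and 0.139 in the other 9. Leaving out any 1 array kept the difference between -1.69 and -1.31.

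VEGFA did not differ measurably with pregnancy on day 12 or with day in pregnant ewes. The day 12 pregnant minus non-pregnant difference was -0.0068 ± 0.24 (95% interval -0.53 to 0.52, adjusted p = 0.998), and the day 14 minus day 12 difference in pregnant ewes was 0.27 ± 0.23 (95% interval -0.23 to 0.78, adjusted p = 0.992). The pregnancy difference on day 14 exceeded that on day 12 by 1.79 ± 0.35 (95% interval 1.03 to 2.56), which did not pass over all probe sets (unadjusted p = 0.0003, adjusted p = 0.132 in limma). This interaction passed without day 14 non-pregnant replicate 2 (1.59, adjusted p = 0.031), without replicate 3 (1.96, adjusted p = 0.0406) and without both (1.68, adjusted p = 0.0469), where 1 ewe of the group remains and the other groups supply the spread. The comparisons share groups, so the day 14 non-pregnant arrays enter each of the differences that passed.

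The second VEGFA probe set differed in the same direction by less on day 14. It read 6.44, 6.92 and 7.01 in day 14 pregnant ewes, against 6.10, 5.43 and 6.08 in day 14 non-pregnant ewes, with no overlap. On day 12 its levels were 6.62, 6.47 and 7.16 in pregnant ewes and 6.45, 6.22 and 6.40 in non-pregnant ewes, again without overlap. The day 14 difference was 0.99 ± 0.22, or 1.98-fold, and just missed the threshold (adjusted p = 0.0559). Batch A alone gave 1.25 and batch B alone 0.58. In non-pregnant ewes it was lower on day 14 by a log2 difference of -0.62 ± 0.25 (adjusted p = 0.357), and within batch B by -0.26. On day 12 the second probe set differed with pregnancy by 0.33 ± 0.22 (adjusted p = 0.765), where the brightest gave -0.0068.

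Over the 12 arrays the 2 VEGFA probe sets had a Pearson r of 0.846, and over the 9 arrays outside the day 14 non-pregnant group an r of 0.527, given here as a description. The scatter of both probe sets shows the 3 day 14 non-pregnant glands apart at its lower left. With the mean of both probe sets as the gene's value, the day 14 difference was 1.39 (adjusted p = 0.00982) and the difference between days in non-pregnant ewes -1.07 (adjusted p = 0.0893).

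**Figure D2:**
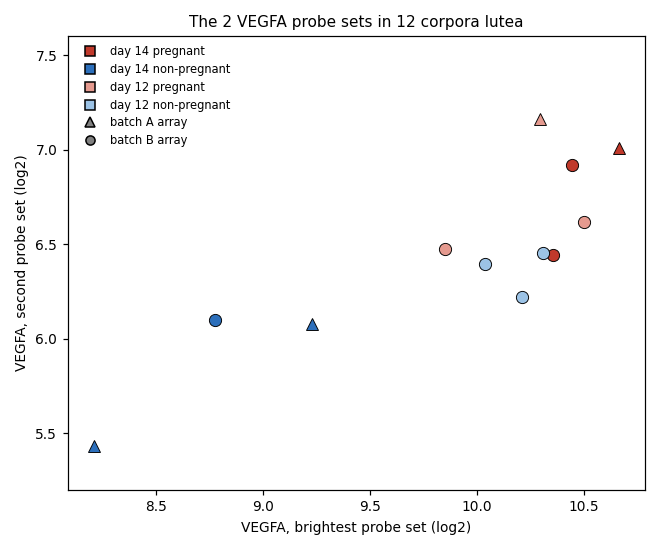
Log2 level of the second VEGFA probe set (y axis) against the brightest (x axis) in 12 corpora lutea, coloured by group, with triangles for batch A and circles for batch B arrays. The 3 day 14 non-pregnant glands are lowest on both axes, between 8.21 and 9.23 on x and between 5.43 and 6.10 on y.

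The other ligands did not pass in any comparison. VEGFB, a FLT1 ligand linked to fatty acid handling, read 8.78, 8.80 and 8.98 in day 14 pregnant ewes, against 8.68, 9.05 and 9.14 in day 14 non-pregnant ewes. Its levels on day 12 were 8.76, 8.78 and 8.98 in pregnant and 8.85, 8.67 and 8.89 in non-pregnant ewes. VEGFB was thus flat, with a day 14 pregnancy difference of -0.0082 ± 0.095 (95% interval -0.22 to 0.20) and a fold interval of 0.860 to 1.15. Its values moved more with the array batch (0.27 ± 0.079 higher in batch A, unadjusted p = 0.00562, adjusted p = 0.68) than with any group. No member passed for batch, nor did any probe set in all (0%, with 6.9% at an unadjusted p under 0.05).

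VEGFC, the main FLT4 ligand, was uneven in the day 14 non-pregnant group. It read 8.74, 8.69 and 8.10 in day 14 pregnant ewes, against 9.77, 8.05 and 9.43 in day 14 non-pregnant ewes. On day 12 the levels were 8.34, 8.46 and 8.66 in pregnant ewes and 8.39, 8.73 and 8.77 in non-pregnant ewes. Day 14 non-pregnant replicates 1 and 3 were thus the highest of all 12 glands and replicate 2 the lowest. The day 14 pregnancy difference was -0.73 ± 0.33 (adjusted p = 0.32). Batch A alone gave -0.64 and batch B alone -1.05. In non-pregnant ewes day 14 exceeded day 12 by 0.76 ± 0.37 (adjusted p = 0.456). Without day 14 non-pregnant replicate 2 the differences were -1.13 (adjusted p = 0.014) and 1.08 (adjusted p = 0.0342), so this single gland decides whether VEGFC passes.

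PGF, placental growth factor, a FLT1 ligand, read 4.60, 4.80 and 4.18 in day 14 pregnant ewes, against 4.77, 5.21 and 4.90 in day 14 non-pregnant ewes. Its levels on day 12 were 4.75, 4.85 and 4.86 in pregnant ewes and 4.62, 4.95 and 4.70 in non-pregnant ewes. The day 14 groups overlapped, with a difference of -0.45 ± 0.17 (adjusted p = 0.226). Batch A alone gave -0.87 and batch B alone -0.072. The lymphangiogenic relative VEGFD, outside the 9 genes, averaged 4.05 at its brightest probe set and differed by -0.0864 to -0.0342 in the 4 comparisons, with none passing.

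Among the receptors FLT1 varied most, through its brightest probe set. It read 7.09, 7.17 and 7.07 in day 14 pregnant ewes, against 7.69, 5.44 and 6.07 in day 14 non-pregnant ewes. The day 12 values were 6.89, 6.60 and 7.27 in pregnant ewes and 6.77, 7.02 and 6.34 in non-pregnant ewes. Replicate 1 of the day 14 non-pregnant group, on a batch B array, was thus the highest of the 12 glands, and replicates 2 and 3, on batch A arrays, were the lowest. The SD was 1.16 in this group and 0.0512 to 0.342 in the others. The day 14 pregnancy difference of 0.55 ± 0.42 (95% interval -0.37 to 1.47, adjusted p = 0.577) had opposite signs within the batches, 1.32 in batch A and -0.56 in batch B. Without day 14 non-pregnant replicate 1 it was 1.51 (adjusted p = 0.0283).

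The 2 dimmer FLT1 probe sets did not share this pattern in size. The second had a day 14 difference of 0.23 ± 0.14 and the third of -0.11 ± 0.13, and their levels spanned 3.93 to 4.51 and 3.75 to 4.33 over all arrays. The brightest FLT1 probe set had an r of 0.662 with the second and 0.107 with the third over 12 arrays. Which transcript forms of FLT1 the 3 probe sets report was not given in the sources used here.

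KDR, the main signalling receptor for VEGFA, stayed within 3.52 to 4.04 on all arrays. Its brightest probe set read 3.86, 3.78 and 3.52 in day 14 pregnant ewes, against 3.52, 3.74 and 3.62 in day 14 non-pregnant ewes. On day 12 it read 3.98, 4.04 and 3.95 in pregnant ewes, against 3.79, 3.78 and 3.80 in non-pregnant ewes, without overlap. The day 14 pregnancy difference was 0.075 ± 0.11 (95% interval -0.16 to 0.31), beside 1.79 for VEGFA. The day 12 pregnancy difference was 0.22 ± 0.11 (adjusted p = 0.664), and day 14 minus day 12 in pregnant ewes was -0.27 ± 0.10 (unadjusted p = 0.021, adjusted p = 0.992). The second KDR probe set differed the same way in all 4 comparisons, by -0.13 to 0.10. At signals this near the lower end of the array a true change in KDR can be understated.

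FLT4, the VEGFC receptor, read 4.97, 5.15 and 5.12 in day 14 pregnant ewes, against 5.21, 5.67 and 4.89 in day 14 non-pregnant ewes at its brightest probe set. Day 12 levels were 5.21, 5.32 and 5.10 in pregnant ewes and 5.13, 4.75 and 5.13 in non-pregnant ewes. All neighbouring groups overlapped. The day 14 pregnancy difference was -0.18 ± 0.19 for the brightest and 0.16 ± 0.18 for the second probe set. The 2 FLT4 probe sets ran against each other in every comparison but that within pregnant ewes, and over the 12 arrays their r was -0.478, so no direction can be given for FLT4.

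The co-receptors differed from each other. NRP1, the partner of KDR in VEGFA signalling, was the brightest member. It read 11.47, 11.23 and 11.17 in day 14 pregnant ewes, against 11.22, 11.08 and 11.25 in day 14 non-pregnant ewes. Day 12 levels were 11.00, 10.84 and 11.23 in pregnant ewes and 11.24, 11.31 and 11.34 in non-pregnant ewes, so the day 12 pregnant glands were lower without overlap, by a narrow margin. The day 14 pregnancy difference was 0.12 ± 0.12 (95% interval -0.15 to 0.39). The day 12 pregnancy difference was -0.28 ± 0.12 (unadjusted p = 0.0437, adjusted p = 0.635).

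NRP2, the co-receptor for VEGFC and FLT4, read 6.84, 6.65 and 6.34 in day 14 pregnant ewes, against 6.81, 7.33 and 7.35 in day 14 non-pregnant ewes. On day 12 all 6 values lay between 6.66 and 6.73. The day 14 non-pregnant glands were thus above both day 12 groups, by a small margin for replicate 1. The day 14 pregnancy difference was -0.53 ± 0.16 (95% interval -0.88 to -0.18, unadjusted p = 0.00621, adjusted p = 0.132), and day 14 minus day 12 in non-pregnant ewes was 0.42 ± 0.18 (adjusted p = 0.379). The pregnancy difference was -0.998 in batch A alone but -0.067 in batch B alone, so it did not hold within both batches. The second probe set gave -0.47 ± 0.22, with -0.99 and 0.011 within batches A and B. Without day 14 non-pregnant replicate 1 the brightest gave -0.85 (adjusted p = 0.019).

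Set side by side, the members differed in the sign and size of their values, and only VEGFA passed the threshold. On day 14, with pregnancy, the 4 ligands stood at 1.79 for VEGFA, -0.0082 for VEGFB, -0.73 for VEGFC and -0.45 for PGF (log2 differences of the brightest probe sets). The receptors stood at 0.55 for FLT1, 0.075 for KDR and -0.18 for FLT4, and the co-receptors at 0.12 for NRP1 and -0.53 for NRP2. Set against day 12, day 14 without pregnancy had the ligands at -1.52, -0.03, 0.76 and 0.24 in the same gene order, the receptors at 0.014, -0.12 and 0.26 and the co-receptors at -0.13 and 0.42. These columns share the day 14 non-pregnant arrays, so mirrored signs are not independent. The median over the 15 probe sets was 0.075 on day 14 with pregnancy, against 0.029 over all probe sets, and -0.030 between days in non-pregnant ewes, against -0.026. The plot of differences sets all 15 probe sets beside each other.

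**Figure D3:**
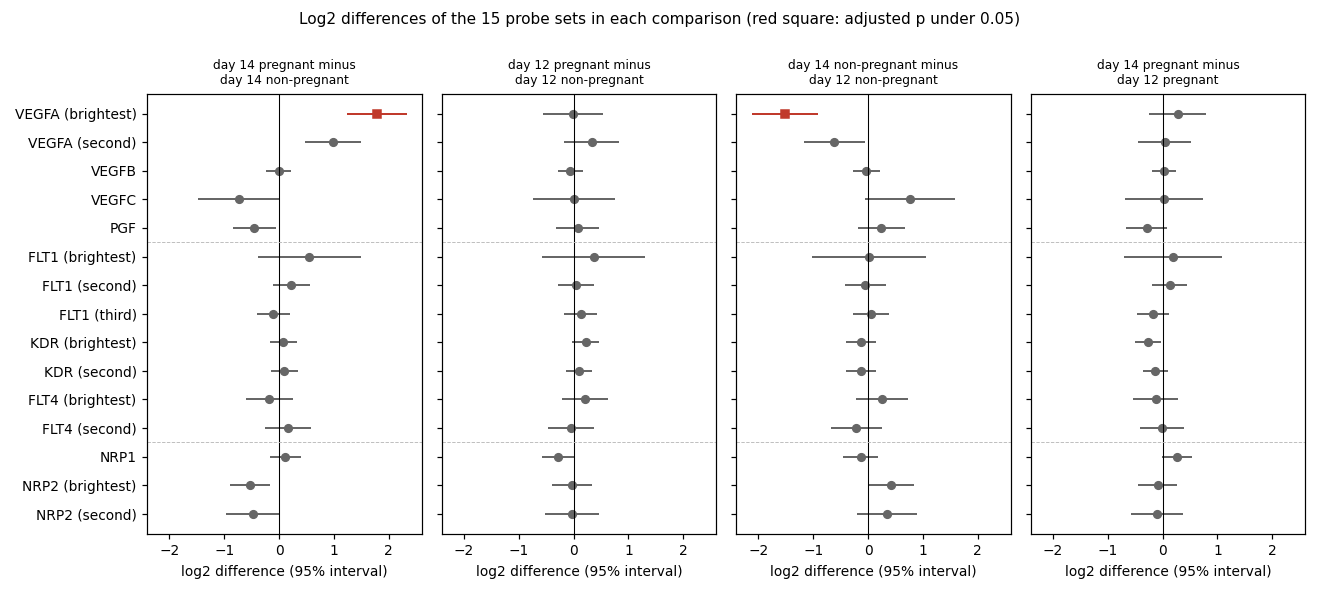
Log2 difference with its 95% interval (x axis) for the 15 probe sets (rows, ligands above, receptors in the middle and co-receptors below the dashed lines) in the 4 comparisons (panels), with red squares where the adjusted p was under 0.05. The brightest VEGFA probe set is the only red square, at 1.79 in the first panel and -1.52 in the third.

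The counts over the 15 probe sets are given beside the shares of the whole array. On day 14, 5 had an unadjusted p under 0.05 with pregnancy (15.4% of all probe sets did), and 2 were higher without overlap between the groups (11.1%), both VEGFA (18.3% of all did not overlap, 7.15% as lower). Between days in non-pregnant ewes the unadjusted count was 3 (11.7%), and 4 probe sets did not overlap (19.8%), 3 lower (12.1%) and 1 higher (7.67%, and 0.291% of all probe sets passed as higher). With pregnancy on day 12, 0 of 15 passed in limma, as did 0% of all probe sets, with 1 at an unadjusted p under 0.05 (7.69%) and 3 without overlap (16.4%), 2 higher (8.56%) and 1 lower (7.87%). Between days in pregnant ewes 0 of 15 passed (0% of all), with 2 at an unadjusted p under 0.05 (4.43%) and 1, lower, without overlap (9.9%, with 5.32% lower and 4.58% higher). For the interaction 0 of 15 passed (0.0874% of all, 0.025% as higher and 0.0625% as lower), with 2 at an unadjusted p under 0.05 (9.42%). Of the 9 genes, 6 had their largest SD in the day 14 non-pregnant group, VEGFA, VEGFB, VEGFC, FLT1, FLT4 and NRP2. The share of all probe sets with their largest SD in that group was not counted. The spread pooled over the groups can thus be too small for this group and its p-values too low.

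Signalling activity was not measured, and the path from receptor to cell response was examined only through RNA levels in whole glands. The list held 29 measured genes of VEGF signal transduction. With pregnancy on day 14, 0 were higher and 1 was lower (0.537% and 0.912% of all probe sets). The lower one was MAPK14, the stress kinase p38 alpha that carries the VEGF signal to cell migration (-0.62 ± 0.12, adjusted p = 0.0271 in limma). MAPK14 did not pass in 4 of the 12 fits without 1 array, those without day 14 pregnant replicate 1, 2 or 3 (adjusted p = 0.0674, 0.0711 and 0.141) or day 14 non-pregnant replicate 3 (0.0535). It also missed with array weights (0.0565), with only the 2 groups fitted (0.164) and without the 2 batch A glands among day 14 non-pregnant ewes (-0.39, adjusted p = 0.234, with 1 ewe left in that group). The list's median was -0.018, with 13 above and 16 below 0 and 7 at an unadjusted p under 0.05 (15.4% of all probe sets). In the other comparisons 0 of 29 passed in limma. At an unadjusted p under 0.05 there were 2 with pregnancy on day 12 (7.69% of all probe sets) and 4 between days in non-pregnant ewes (11.7%). Between days in pregnant ewes there was 1 (4.43%), and for the interaction 3 (9.42%). RCAN1, a calcineurin inhibitor induced by VEGF in endothelial cells, stood at -2.31 ± 0.61 with pregnancy on day 14 (adjusted p = 0.0962) and at 2.01 ± 0.68 between days in non-pregnant ewes (adjusted p = 0.263). NOS3, the endothelial nitric oxide synthase, stood at 0.64 ± 0.22 between days in non-pregnant ewes (adjusted p = 0.282).

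Of 18 measured regulators of VEGF supply and ligand processing, 0 passed in any comparison in limma. Over all probe sets 1.45% passed on day 14 with pregnancy, 0.391% between days in non-pregnant ewes, 0.0874% for the interaction and 0% otherwise. At an unadjusted p under 0.05 there were 3 on day 14 with pregnancy (15.4% of all probe sets) and 1 on day 12 (7.69%). Between days there were 4 in non-pregnant (11.7%) and 1 in pregnant ewes (4.43%), and for the interaction 4 (9.42%). Closest on day 14 were EGLN1, an oxygen sensor that marks HIF1A for destruction, at 0.47 ± 0.14 (adjusted p = 0.138), and SPARC, a matrix protein that binds VEGF, at 0.38 ± 0.15 (adjusted p = 0.234). Of the semaphorins and plexins that share the neuropilins 4 were measured and 0 passed in limma. At an unadjusted p under 0.05 there were 2 with pregnancy on day 12 (7.69% of all). There were 0 between days in non-pregnant (11.7%) or pregnant ewes (4.43%) and 0 for the interaction (9.42%). On day 14 with pregnancy there was 1 (15.4% of all). This was SEMA3B, a secreted neuropilin ligand (0.28 ± 0.11, adjusted p = 0.246).

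Endothelial markers did not move as one with VEGFA. On day 14, 2 of 17 were higher with pregnancy and 0 lower (0.537% and 0.912% of all probe sets), namely CD34, a surface sialomucin (1.09 ± 0.16, adjusted p = 0.00828), and TIE1, an orphan receptor of the angiopoietin system (0.48 ± 0.088, adjusted p = 0.0266). The median of the 17 was 0.082, with 10 above and 7 below 0 and 5 at an unadjusted p under 0.05 (15.4% of all). The mean log2 level over the list ran from 7.04 to 7.15 per array in day 14 pregnant ewes, against 6.87 to 7.18 in day 14 non-pregnant ewes. PECAM1 read 10.17, 9.96 and 10.01 in day 14 pregnant ewes, against 10.72, 9.93 and 10.56 in day 14 non-pregnant ewes. CDH5, the endothelial cadherin, read 8.48, 8.18 and 8.21, against 8.57, 8.14 and 8.23 in the same 2 groups. Among non-pregnant ewes, between days, 0 of 17 passed in limma, with 4 at an unadjusted p under 0.05 (11.7% of all). CD34 missed the threshold when replicate 3 of the day 14 pregnant ewes was left out (adjusted p = 0.0799), and TIE1 missed it in 5 of the 12 fits without 1 array, with adjusted p up to 0.093. Both missed it with only the 2 groups fitted (0.0917 for CD34 and 0.208 for TIE1) and with 1 day 14 non-pregnant ewe, on batch B, kept (0.69, adjusted p = 0.0596, and 0.50, adjusted p = 0.126). TIE1 missed it with array weights too (0.0678).

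Within the day 14 non-pregnant group, some hand-picked endothelial markers had the same array order as FLT1. FLT1 stood at 7.69, 5.44 and 6.07 in replicates 1 to 3, TEK, the angiopoietin receptor, at 8.05, 7.34 and 7.70, and ROBO4, an endothelial guidance receptor, at 8.89, 7.24 and 8.25. PECAM1 and CDH5 had replicate 1 highest and replicate 2 lowest as well. TIE1 ran otherwise, at 6.54, 6.76 and 6.68. These markers were chosen after their values were seen, and how many of the 17 measured had this order was not counted. They thus do not show that endothelial markers in general followed FLT1. The part of endothelial cell number in the FLT1 values was not tested.

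**Figure D4:**
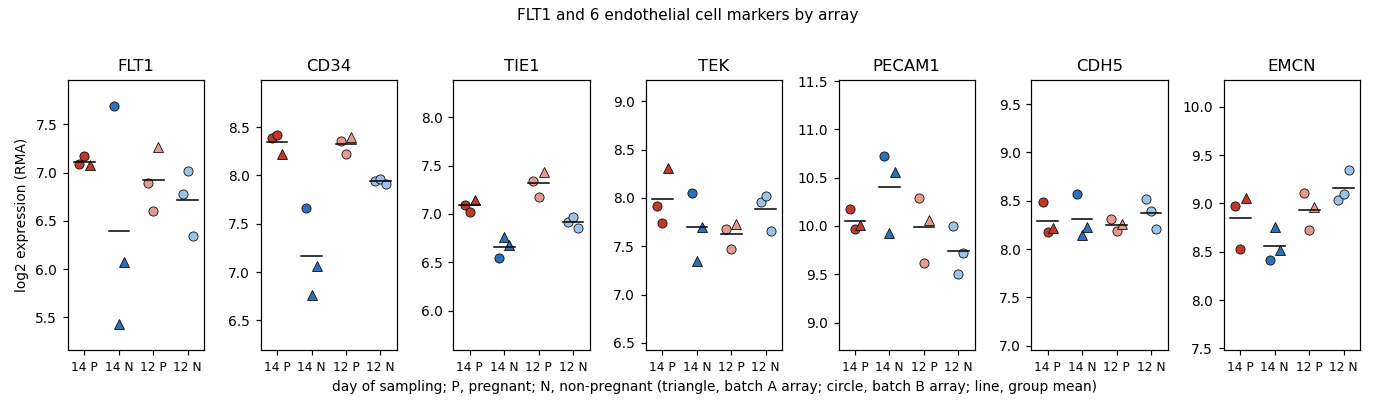
Log2 level (y axis, each panel spanning 2.8 log2 units) of FLT1 and 6 endothelial markers, chosen after their values were seen, by group (x axis), with 1 point per ewe, triangles for batch A, circles for batch B and lines for group means. Among the day 14 non-pregnant points FLT1, TEK, PECAM1 and CDH5 have the batch B gland highest, while all 3 CD34 and TIE1 points lie below the other groups.

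Among markers of steroidogenic luteal cells, known producers of VEGFA, some changed in the same comparisons. On day 14, 2 of 11 were higher with pregnancy and 0 lower (0.537% and 0.912% of all probe sets), STAR (0.74 ± 0.13, adjusted p = 0.0245) and NR5A2, a nuclear receptor of luteal cells (1.16 ± 0.12, adjusted p = 0.00148), and 10 lay above 0. At an unadjusted p under 0.05 there were 6 (15.4% of all). NR5A2 passed here in every alternative run. STAR missed the threshold in 4 of the 12 fits without 1 array, those without day 14 pregnant replicate 1, 2 or 3 (adjusted p = 0.0597, 0.0612 and 0.146) or day 14 non-pregnant replicate 3 (0.0506). It also missed with only the 2 groups fitted (0.162) and with 1 day 14 non-pregnant ewe, on batch B, kept (0.40, adjusted p = 0.191). The mean log2 level over the list was 10.24 to 10.40 per array in day 14 pregnant ewes, against 9.68 to 10.09 in day 14 non-pregnant ewes. On day 12 it was 10.32 to 10.38 in pregnant and 10.24 to 10.37 in non-pregnant ewes. Between days in non-pregnant ewes 0 of 11 were higher and 1 was lower (0.291% and 0.0999% of all probe sets). The lower one was NR5A2 (-0.86 ± 0.14, adjusted p = 0.0239 in limma). This call was lost in 5 of the 12 fits without 1 array, with adjusted p of 0.0526 to 0.103. They left out replicate 3 of either pregnant group, replicate 1 of the day 14 non-pregnant ewes, or replicate 2 or 3 of the day 12 non-pregnant ewes. It was also lost with only the groups compared (0.196) and with 1 day 14 non-pregnant ewe, on batch B, kept (0.0574). The part of luteal cell number or state in the VEGFA difference was not tested. Control probe sets at the 3′ end exceeded those at the 5′ end, averaged over actin and GAPDH. The log2 difference was 1.44 to 1.60 in day 14 pregnant ewes, against 1.29 to 1.43 in day 14 non-pregnant ewes. On day 12 it was 1.57 to 1.60 in pregnant and 1.42 to 1.47 in non-pregnant ewes. The part of these RNA end differences in the VEGFA values was not tested either.

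Of the other cell types, pericyte and smooth muscle markers had 0 higher and 1 lower of 9 on day 14 with pregnancy (0.537% and 0.912% of all probe sets). The lower one was CNN1, a smooth muscle calponin (-1.54 ± 0.15, adjusted p = 0.000974 in limma). Most of the list went the other way, with 6 above and 3 below 0 and a median of 0.25. Between days in non-pregnant ewes 1 of 9 was higher and 0 lower (0.291% and 0.0999% of all), again CNN1 (1.38 ± 0.16, adjusted p = 0.00525 in limma). Here 2 lay above and 7 below 0, with a median of -0.18. The CNN1 call between days was lost in 1 of the 8 alternatives other than leaving out 1 array. Lymphatic endothelial markers (4 measured) and macrophage markers (11 measured) had 0 past the threshold in every comparison in limma. On day 14 with pregnancy, 0 and 4 had an unadjusted p under 0.05 (15.4% of all probe sets did). In the other comparisons between groups and for the interaction 0 and 0 did, against 4.43% to 11.7% of all. The lymphatic mean log2 level per array was 8.19 to 8.50 in day 14 pregnant ewes, against 7.98 to 8.44 in day 14 non-pregnant ewes.

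The genes most like VEGFA were sought among 9019 named genes by Pearson r over the 12 arrays, as a description. The 5 highest were CLCN3, a chloride-proton exchanger (0.938), TMEM187 (0.927), SORBS3, an adhesion adaptor (0.922), SFXN3, a mitochondrial carrier (0.921), and C1H21orf62 (0.919). The 5 lowest were TGFB1, a growth factor (-0.942), ZDHHC6, a palmitoyltransferase (-0.939), CRYAB, a small heat shock protein (-0.935), EIF1AX, a translation factor (-0.931), and PRKCD, a protein kinase C (-0.927). Over the 9 arrays outside the day 14 non-pregnant group r was 0.816 for C1H21orf62 and -0.808 for ZDHHC6. It was 0.168 to 0.585 for the other 4 of the first set, and -0.556 to 0.278 for the other 4 of the second. Most of this likeness thus lies in the 3 low glands.

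FLT1 had a different neighbourhood, with HSPA12B, a chaperone gene of endothelial cells (0.93), ADCY4, an adenylyl cyclase (0.927), and NHERF2, a scaffold protein (0.92). Their r was 0.786, 0.79 and 0.79 over the 9 other arrays, where they ranked 52, 43 and 42 among the 9019 genes. These arrays are among the 12 by which the genes were picked, so this is not an independent check. For KDR, with its low signal, the closest were FAHD2A (0.914), SIAE (0.884) and EPN1 (0.871).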

How the data were processed

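Expression values of 24128 probe sets on 12 arrays were deposited as log2 values. Per the submitters' processing notes, the authors used Affymetrix Expression Console and RMA, which corrects background, equalises the arrays by quantiles and summarises probes on the log2 scale. Software versions were not stated there. RNA was extracted with Trizol and labelled with a whole-transcript kit, per the labels' protocols.

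After 112 control probe sets were left out, 24016 were tested. GEO's annotation of the bovine platform gave a single symbol to 13292 of them, several to 86 and none to 10638. A gene was represented by the probe set with the highest mean, with its others given beside it. Means of 4 groups and an additive batch term were fitted in limma 3.58.1 (R 4.3.3) over the 12 arrays together (7 residual and 4.39 prior degrees of freedom), with two-sided moderated tests and Benjamini-Hochberg adjustment over all probe sets at 0.05. Values after ± are standard errors unless SD is named. Percentages beside counts of members give the share of all 24016 probe sets that met the same criterion. The procedure was tested on simulated data.

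All members were named. From each list up to 4 genes past the threshold were named. Where none passed, up to 2 genes were named in some comparisons, and none from the lymphatic and macrophage lists. RCAN1 on day 14, VEGFD and the endothelial markers set beside FLT1 were named outside this rule. The members and lists were chosen with earlier results of these data known, so their counts are descriptions. Replicates were numbered in accession order. Alternatives covered batch handling, arrays in the fit, array weights, dim probe sets, centring, the prior variance, VEGFA probe sets and leaving out each array. No sequences, genome positions or PCR data were used here.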

Additional observations from a re-analysis of the deposited data

Results flagged for a closer look

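CNN1, a marker of smooth muscle cells, was the 1 gene of the pathway and cell type lists whose pregnancy difference itself differed between the days. The day 14 difference lay below the day 12 difference by -1.43 ± 0.22 (log2, SE, n = 3 ewes per group, limma adjusted p = 0.0456). It passed in 2 of the 12 fits without 1 array, with values of -1.56 to -1.26 and adjusted p of 0.0195 to 0.161. In the 7 other alternatives it passed in 5, and did not with array weights or without the dimmest probe sets (adjusted p = 0.0652 and 0.0509). No value of the 9 VEGF system genes was singled out in this way. CNN1 went against most of its own list here. Of the 9 pericyte and smooth muscle markers, 7 lay above and 2 below 0 for the interaction, with a median of 0.34.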

How the results depend on the processing

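No paired analysis was possible because each of the 12 arrays came from a different ewe. The labels number no replicates, so the numbers used here follow accession order and tie no ewes together. VEGFA on day 14 with pregnancy stayed positive in every alternative. It missed the threshold with only the 2 groups fitted (1.78, adjusted p = 0.0776) and with the second probe set alone (0.99). Leaving out 1 array gave 1.53 to 1.99. Between days in non-pregnant ewes VEGFA missed it with only the groups compared (-1.41), the mean of both probe sets (-1.07) and the second alone (-0.62), and leaving out 1 array gave -1.69 to -1.31. The interaction of 1.79 passed without the 2 batch A glands of day 14 non-pregnant ewes (1.68), a fit with 1 ewe in that group and the spread of the other groups, and spanned 1.55 to 2.03 without 1 array. Its day 12 pregnancy difference turned positive with no batch term (0.029), a random block (0.032), the mean of both probe sets (0.16) and the second alone (0.33), and spanned -0.21 to 0.20 without 1 array. Member probe sets past the threshold on day 14 numbered 2 with no batch term or a random block, 0 with only the groups compared and 0 to 4 without 1 array. Between days in non-pregnant ewes they numbered 0 with only the groups compared and 0 to 2 without 1 array, and for the interaction 1 without the 2 batch A glands and 0 to 1 without 1 array.

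None of the sign changes that follow passed the threshold, and their cause was not tested. With no batch term, the day 12 pregnancy difference was 0.032 for VEGFB and -0.14 for VEGFC, the day difference in non-pregnant ewes 0.15 for VEGFB and -0.31 for FLT1, and the interaction -0.13 for VEGFB. A random block gave 0.039, -0.16, 0.16, -0.34 and -0.14 for the same 5. Array weights gave -0.029 for VEGFC on day 12 and -0.20 for FLT1 between days in non-pregnant ewes, and centring gave 0.0038 for VEGFB there. With only the groups compared, VEGFB was 0.0018 on day 14 and VEGFC -0.23 on day 12. Without the 2 batch A glands, VEGFB was 0.11 and FLT1 -0.65 on day 14, VEGFC -0.084 and NRP2 0.055 on day 12, and the interaction -0.78 for FLT1 and 0.0037 for KDR. Leaving out 1 array spanned, on day 14, -0.10 to 0.045 for VEGFB, -0.075 to 0.23 for KDR and -0.34 to 0.013 for FLT4. On day 12 it spanned -0.23 to 0.20 for VEGFC and -0.10 to 0.055 for NRP2. Between days in non-pregnant ewes it spanned -0.096 to 0.087 for VEGFB, -1.19 to 0.35 for FLT1 and -0.20 to 0.065 for KDR. In pregnant ewes it spanned -0.010 to 0.060 for VEGFB, -0.14 to 0.38 for VEGFC, -0.069 to 0.70 for FLT1 and -0.22 to 0.15 for NRP2. For the interaction it spanned -0.067 to 0.12 for VEGFB, -0.18 to 1.38 for FLT1 and -0.34 to 0.047 for KDR.

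Over all probe sets, dropping the batch term moved the number past the threshold to 531 on day 14 with pregnancy (348 with it), 415 between days in non-pregnant ewes (94) and 50 for the interaction (21). With 3 ewes a group and no detection calls, small changes in the KDR, PGF and FLT4 signals cannot be resolved.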
